A study of Mus musculus with 26 samples.

Results

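The genes described are 9 of the 12394 genes measured in mouse left lung on Affymetrix mouse expression arrays. All 9 are made mainly or strongly by the alveolar type 2 cell: the surfactant proteins Sftpa1, Sftpb, Sftpc and Sftpd, and Abca3, Napsa, Slc34a2, Lpcat1 and Etv5. They were chosen by name for their role, and each is represented by the probe set with the highest mean among those annotated to 1 gene. Expression is given as the deposited log2 value, on which a difference of 1 is a 2-fold change of signal, and since the probes of different genes differ in brightness no gene's value is set against another's.

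Alveolar type 2 cells line the corners of the alveoli and make pulmonary surfactant, the film of lipid and protein that lowers surface tension at the air-liquid surface. SP-B and SP-C, the products of Sftpb and Sftpc, are small hydrophobic proteins that spread the lipid film, whereas SP-A and SP-D, the products of Sftpa1 and Sftpd, are collectins that bind microbes and surfactant lipid and regulate alveolar macrophages. The lipid is packed into lamellar bodies and secreted, taken up again, and broken down by type 2 cells and macrophages.

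The mice were males aged 6 to 8 weeks, either Il10+/+ (C57BL/6) or Il10-/- (B6.129P2-Il10tmlCgn/J, as the labels spell it), so that the Il10-/- mice lacked interleukin-10, a cytokine that restrains inflammation, in every cell. They breathed 0.3 ppm ozone (O3) for 24, 48 or 72 hr, at 23.5 hr/day, or filtered air. Each genotype had 4 air arrays, 2 of 24 hr and 2 of 48 hr, which were pooled, and 3 arrays at each O3 time. The array Il10-/- O3 24 hr replicate 2 was left out, which leaves 2 arrays in that group and 25 arrays in 8 groups. The labels call the arrays biological replicates and do not name the animal behind each.

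On the array left out, the surfactant genes lay far below their level on all other arrays. Its log2 values were 4.61 for Sftpa1, 5.19 for Sftpb, 6.36 for Sftpc, 4.85 for Sftpd and 5.58 for Slc34a2, with differences from the mean of the other 2 arrays of its group between -9.31 and -7.35. Abca3, Napsa, Lpcat1 and Etv5 fell short by less, with values of 9.29, 10.83, 11.26 and 5.97, and differences of -2.04, -1.20, -1.10 and -2.75. All 9 genes were therefore lower there than on any of the other 25 arrays, but by amounts that differed widely between genes. Pearson's r of this array with the others over all probe sets was 0.847 to 0.879, against at least 0.9645 among the 25. Other cell markers moved on it too: the mean level was 6.16 for 10 type 1 cell genes and 6.27 for 8 club cell genes, beside 11.15 to 11.71 and 11.88 to 12.80 on the 25 arrays. In the opposite direction, it was 10.53 for 10 B cell genes, 9.33 for 11 T cell genes, 9.63 for 4 red blood cell genes and 9.90 for 13 genes of dividing cells, beside 6.19 to 7.97, 5.80 to 6.79, 6.26 to 7.82 and 4.88 to 7.64. The markers of this array thus go against its lung label.

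**Figure D1:**
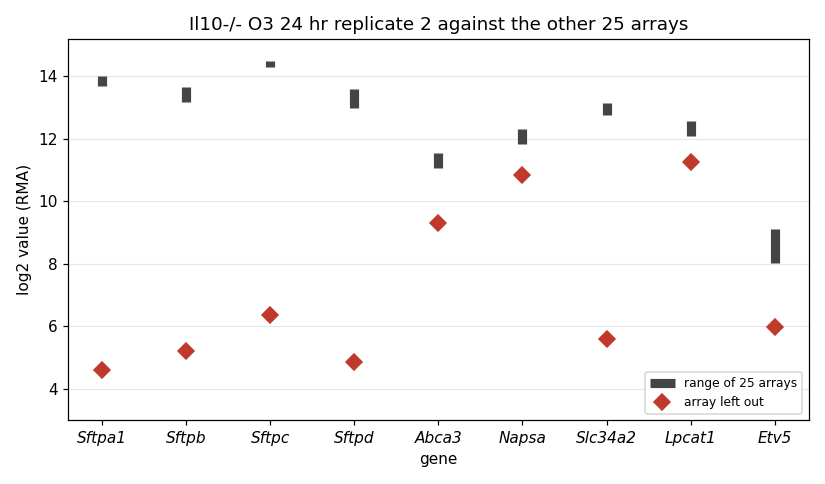
Log2 value (vertical axis) of each of the 9 genes (horizontal axis). Dark bars span the lowest to the highest of 25 arrays and the red diamond is Il10-/- O3 24 hr replicate 2, which lay below the bar for every gene, at 4.61 for Sftpa1 and 11.26 for Lpcat1.

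The lowest value of the 9 genes on any of the 25 arrays was 8.02, of Etv5 on an Il10+/+ air array. The Il10 probe set lay between 3.92 and 4.25 on the Il10+/+ arrays and between 6.29 and 7.71 on the Il10-/- arrays, except for 3.87 on 1 library, labelled as Il10-/- air 48 hr replicate 1. The higher signal in mice labelled as lacking Il10 means that this probe set does not check the deletion by absence. Calls over the O3 times in Il10-/- mice, whose air group includes this library, are given with it, and those lost without it are named. Of the 25 arrays, 5 have a source name that ends in the letter c, whose meaning the labels do not give, and 3 of the 4 Il10-/- air arrays are among them.

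RefSeq promoter windows (GRCm38.p6, 250 bases before the transcript start to 50 after it) were found for 6 of the 9 genes: Sftpa1, Sftpb, Abca3, Slc34a2, Lpcat1 and Etv5. No window was matched for Sftpc, Sftpd and Napsa. Sftpa1, whose O3 and air arrays did not overlap, and Sftpb, whose arrays did, are shown as the pair of surfactant protein genes with a window, at chr14:41131538-41131837 and chr6:72304360-72304659, both on the plus strand. Capitals mark every match, on either strand, to CAAGTG (the core bound by the NKX2 family, to which the lung factor NKX2-1 belongs), TTGCNNAA (C/EBP), TGANTCA (AP-1) or TATAAA (the TATA box).
Sftpa1: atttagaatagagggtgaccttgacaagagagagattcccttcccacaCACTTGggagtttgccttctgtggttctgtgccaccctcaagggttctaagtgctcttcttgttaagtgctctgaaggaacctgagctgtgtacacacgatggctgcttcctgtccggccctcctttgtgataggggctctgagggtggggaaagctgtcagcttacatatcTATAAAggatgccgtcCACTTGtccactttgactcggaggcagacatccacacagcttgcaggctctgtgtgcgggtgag
Sftpb: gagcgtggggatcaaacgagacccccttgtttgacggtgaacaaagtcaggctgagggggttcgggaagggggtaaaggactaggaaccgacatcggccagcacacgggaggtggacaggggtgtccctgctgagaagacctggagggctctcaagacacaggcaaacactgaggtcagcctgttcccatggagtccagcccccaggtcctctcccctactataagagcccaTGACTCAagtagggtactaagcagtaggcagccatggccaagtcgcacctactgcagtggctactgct

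The Sftpa1 window held CAAGTG 2 times, both as its reverse complement, starting at positions -202 and -14 relative to the transcript start, and TATAAA at position -30. The Sftpb window held TGANTCA 1 time, at position -18. Among the other windows only that of Slc34a2 held a match, to TTGCNNAA. Over all 32851 promoter windows of the same length, 13.56% held CAAGTG, 10.8% TTGCNNAA, 7.81% TGANTCA and 13.62% TATAAA. A match describes the letters of the window and nothing of what binds there.

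Sftpd, the gene of SP-D, was the member whose level moved furthest with O3. It lies on chromosome 14, from 41172212 to 41185198, beside Sftpa1 (41131788 to 41136373). In Il10-/- mice its log2 values were 13.02 and 13.31 in air of 24 hr and 12.97 and 13.19 in air of 48 hr. After O3 they were 13.29 and 13.57 at 24 hr, 13.46, 13.50 and 13.60 at 48 hr, and 13.35, 13.40 and 13.43 at 72 hr. Every array of 48 and 72 hr lay above all 4 air arrays, whereas 1 of the 2 arrays of 24 hr lay below the highest air array.

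In Il10-/- mice Sftpd rose at 48 hr by 0.40 on the log2 scale (SE 0.0863, 95% interval 0.22 to 0.58, 3 against 4 arrays, adjusted p = 0.00601 by limma), 1.32-fold. Over the 3 O3 times it rose by 0.32 (SE 0.0696, interval 0.18 to 0.47, adjusted p = 0.00561), 1.25-fold. These were the only calls among the 9 genes in any comparison: 1 of 9 at 48 hr beside 6.33% of all genes, 1 of 9 over the O3 times beside 7.55%, 0 of 9 at 24 hr beside 2.09% and 0 of 9 at 72 hr beside 5.87%. Sftpd did not pass at 24 hr, where the change was 0.30 (adjusted p = 0.108), nor at 72 hr, where it was 0.27 (adjusted p = 0.0698). As these are whole lungs, more cells and more mRNA per cell cannot be told apart.

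The Sftpd calls were lost when the letter c was taken into account. Of the 4 Il10-/- air arrays, the 3 with the letter c had Sftpd values of 13.02, 12.97 and 13.19, and the 1 without it had 13.31. With the letter as a covariate the change at 48 hr was 0.26 (adjusted p = 0.1005). Against the single air array without the letter, with the lettered arrays left out, the change was 0.21 (adjusted p = 0.287), a value whose error assumes that the lone array varies like the other groups. When the library labelled as Il10-/- air 48 hr replicate 1 was left out, the change was 0.35 (adjusted p = 0.0278), and over the O3 times 0.27 (adjusted p = 0.0424). The other Il10-/- array with the letter was O3 24 hr replicate 1, at 13.29, beside 13.57 on replicate 3 of that group, without it. The part of the letter in the Il10-/- result was not tested further, since in these mice the letter goes largely with air.

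Il10+/+ mice, whose air arrays do not carry the letter, showed Sftpd values of 13.17 and 13.21 in air of 24 hr and 13.01 and 13.12 in air of 48 hr. After O3 they were 13.16, 13.23 and 13.32 at 24 hr, 13.31, 13.37 and 13.44 at 48 hr, and 13.42, 13.43 and 13.46 at 72 hr. The arrays of 48 and 72 hr all lay above the 4 air arrays and those of 24 hr overlapped them. The changes were 0.11 at 24 hr, 0.25 at 48 hr (SE 0.0863, adjusted p = 0.130), 0.31 at 72 hr (SE 0.0863, interval 0.13 to 0.49, adjusted p = 0.0517) and 0.22 over the 3 times (adjusted p = 0.0720). With the letter as a covariate, which among Il10+/+ arrays marks only O3 72 hr replicate 3, the 72 hr change was 0.37 and passed (adjusted p = 0.0136). That array, at 13.43, lay between the others of its group, at 13.42 and 13.46. The adjustment for the letter therefore comes mainly from the Il10-/- arrays, and the larger change is not separate evidence from Il10+/+ mice. No member was called in Il10+/+ mice, where 0.0484% of all genes were called at 24 hr, 3.71% at 48 hr, 3.15% at 72 hr and 3.66% over the O3 times.

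By group, the mean of Sftpd peaked at 72 hr in the Il10+/+ genotype (13.43 ± 0.019, SD, n = 3) and at 48 hr in the Il10-/- genotype (13.52 ± 0.071, SD, n = 3), and the air means were 13.12 ± 0.087 (SD, n = 4) and 13.12 ± 0.154 (SD, n = 4) in the same order. Among the O3 times of a genotype the arrays overlapped from 1 time to the next, except that the Il10-/- arrays of 48 hr all lay above those of 72 hr. The 3 Il10-/- arrays of 48 hr all lay above the 3 Il10+/+ arrays of 48 hr, a difference of 0.15 (interval -0.04 to 0.34) that did not pass (adjusted p = 0.999885), and at 72 hr the difference was -0.04. None of the 9 genes was called between the genotypes in air, where 0.00807% of all genes were, or at 24, 48 or 72 hr of O3, where 0.662%, 0.00807% and 0.0242% were. The genotype difference in the O3 response was called for 0 of 9 genes and for 0% of all genes at each of the 3 times, and none of the 9 had an unadjusted p under 0.05 there, beside 891, 272 and 309 of all genes.

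**Figure D2:**
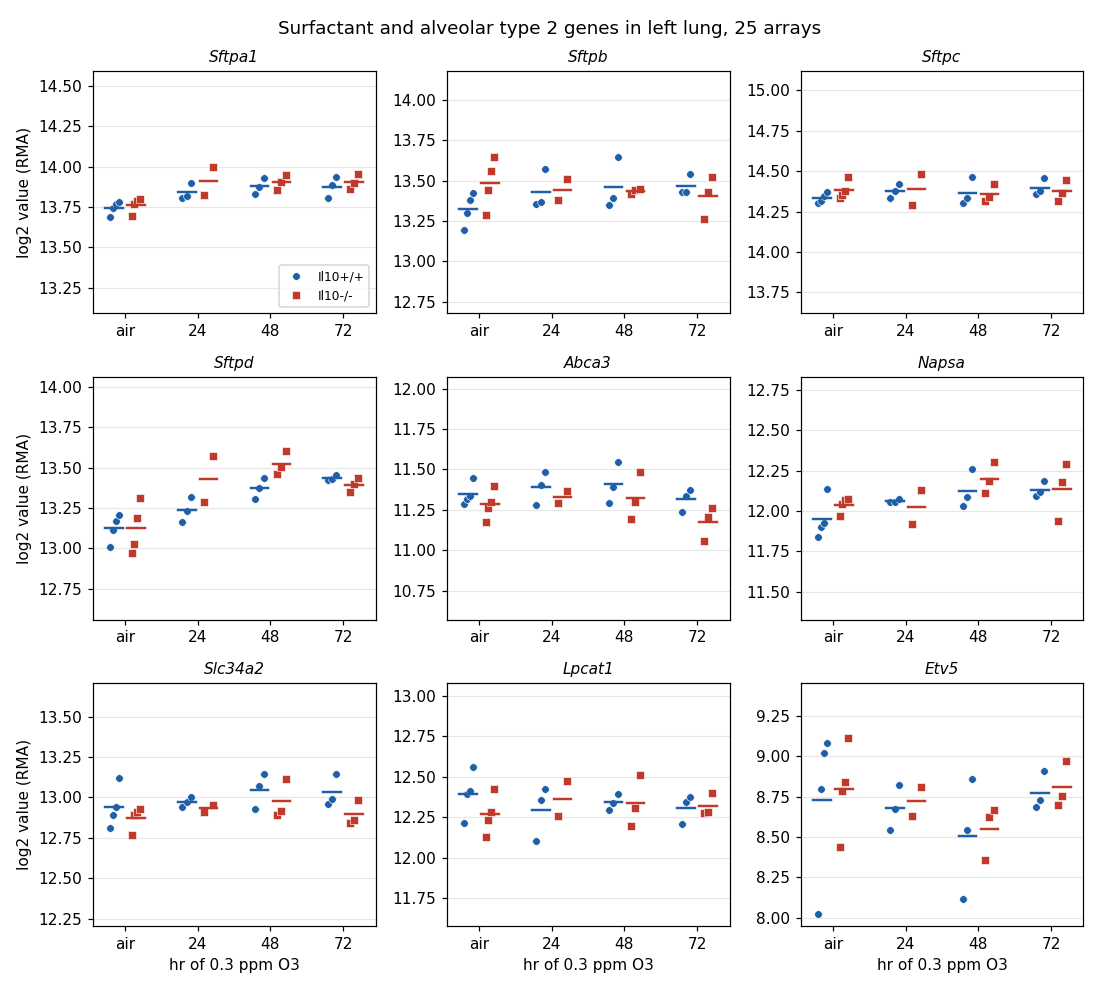
Log2 value (vertical axes, each spanning the same range) on 25 arrays of each of the 9 genes in air and after 24, 48 and 72 hr of 0.3 ppm O3 (horizontal axes). Points are arrays, blue circles Il10+/+ and red squares Il10-/-, and short lines are group means. Every O3 point of Sftpa1 lies above every air point, Sftpd has the widest separation of means, and Etv5 has the widest spread within groups.

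Sftpa1, the gene of the other collectin, differed by less than Sftpd between O3 and air, but without overlap. In Il10+/+ mice its log2 values were 13.767 and 13.781 in air of 24 hr and 13.690 and 13.745 in air of 48 hr. After O3 they were 13.821, 13.805 and 13.899 at 24 hr, 13.871, 13.829 and 13.931 at 48 hr, and 13.806, 13.887 and 13.936 at 72 hr. All 9 O3 arrays thus lay above all 4 air arrays.

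The Il10-/- air values of Sftpa1 were 13.790 and 13.797 at 24 hr and 13.692 and 13.769 at 48 hr. After O3 they were 13.826 and 14.0004 at 24 hr, 13.853, 13.950 and 13.906 at 48 hr, and 13.896, 13.956 and 13.864 at 72 hr. The 8 O3 arrays lay above the 4 air arrays here too, and over both genotypes the lowest of 17 O3 arrays (13.805) stood just above the highest of 8 air arrays (13.797).

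Of all genes, 1.83% had every O3 array above every air array in Il10+/+ mice, 1.98% had this in Il10-/- mice, and 0.307% (38 genes) had it over both genotypes together. Sftpa1 was the only member among them in each case. Of these 38 genes, 37 were called by limma over the O3 times in at least 1 genotype and Sftpa1 was the one that was not. Its changes over the O3 times were 0.12 in Il10+/+ mice (SE 0.0514, interval 0.01 to 0.23, adjusted p = 0.238), 1.09-fold, and 0.14 in Il10-/- mice (SE 0.0527, interval 0.04 to 0.25, adjusted p = 0.1003), 1.11-fold.

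The spread of Sftpa1 within groups was very small, with a residual SD of 0.0570 on the log2 scale, a value that only 0.113% of genes reach or fall below. Limma's moderation drew it up to 0.0856, towards the common value of 0.156. The methods' two-way analysis of variance, which takes each gene's own spread, gave Sftpa1 an exposure p of 0.00057 (0.00911 after Benjamini-Hochberg adjustment over all genes), and Sftpd one of 4.69e-05 (0.00156 after adjustment). By this test 16.2% of all genes passed the methods' unadjusted threshold for exposure and 14.8% passed after adjustment. Limma's F test of exposure passed 9.11% after adjustment and called Sftpd (adjusted p = 0.0105) and not Sftpa1 (adjusted p = 0.291). The tests also differ in what they ask. Limma's takes the changes at each time in each genotype together, whereas the analysis of variance takes exposure over both genotypes. How much of the gap between them comes from either difference was not tested. A second probe set of Sftpa1, between 11.618 and 11.999, had changes of 0.03 and 0.09 over the O3 times in Il10+/+ and Il10-/- mice (adjusted p = 0.899 and 0.553).

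In air, Sftpa1 was higher on all 4 arrays of 24 hr than on 3 of the 4 arrays of 48 hr, and its O3 changes depended on the air used. Against air of the same time the Il10+/+ changes were 0.07 at 24 hr and 0.16 at 48 hr, and the Il10-/- changes were 0.12 and 0.17. No air arrays of 72 hr are labelled, so the 72 hr change rests on air of shorter exposure.

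Sftpa1 and Sftpd varied together, with a Pearson's r of 0.804 over the 25 arrays, 0.939 over the 8 group means and 0.479 over the arrays' deviations from their group means. This is a description: the arrays share their groups and normalization, and the genes are neighbours on chromosome 14. Over the 25 arrays the next pairs were Abca3 with Slc34a2 (0.61) and Sftpa1 with Napsa (0.484). Over the deviations within groups other pairs stood higher than Sftpa1 with Sftpd, namely Abca3 with Slc34a2 (0.581), Sftpb with Abca3 (0.531), Sftpa1 with Sftpc (0.529) and Sftpc with Sftpd (0.494).

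**Figure D3:**
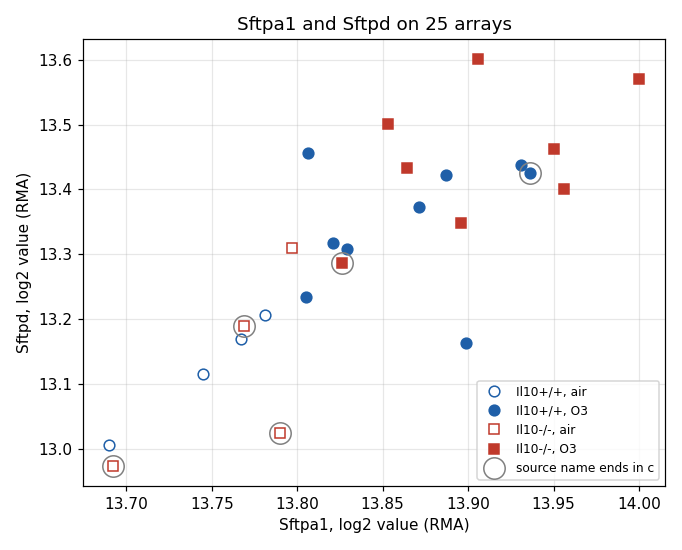
Log2 value of Sftpa1 (horizontal axis) and Sftpd (vertical axis) on 25 arrays, with blue circles for Il10+/+ and red squares for Il10-/-, open for air and filled for O3, and grey rings around the 5 arrays whose source name ends in c. Pearson's r was 0.804, all 17 filled points lie to the right of the 8 open points, and 3 of the 4 open red squares are ringed.

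The genes of the hydrophobic surfactant proteins did not pass any test. Sftpc, the gene most particular to type 2 cells, stayed between 14.29 and 14.48 on the 25 arrays, a range of 0.193, and its group means lay between 14.33 (Il10+/+ air) and 14.40 (Il10+/+ 72 hr). Its changes at the 6 combinations of genotype and time ran from -0.02 to 0.06. Their intervals reached from -0.17 to 0.21, so that falls of signal below 0.891-fold and rises above 1.15-fold were outside all of them. The Sftpc probe set ranked 1 or 2 in brightness on each of the 25 arrays. Quantile normalization, which gives all arrays a common distribution, leaves a probe set of such rank little room to vary. The intervals thus bound the normalized signal, and whether the RNA changed by more was not tested. The highest value of any probe set on an array was 14.422 to 14.597, and how far a signal this near the top of the scale could still rise was not tested.

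Sftpb, whose protein is needed for lamellar bodies and a working film, had Il10+/+ air values of 13.38, 13.19, 13.42 and 13.30 and Il10-/- air values of 13.65, 13.56, 13.44 and 13.29. After O3 it lay between 13.35 and 13.65 where Il10 was intact and between 13.26 and 13.53 where it was lacking, and the arrays overlapped air in all but the Il10+/+ 72 hr group. Its mean change over the O3 times was 0.13 in Il10+/+ mice (interval -0.03 to 0.29, adjusted p = 0.427) and -0.06 in Il10-/- mice (interval -0.22 to 0.11, adjusted p = 0.755). The Il10-/- air mean was 0.16 above that of Il10+/+ mice (interval -0.02 to 0.35, adjusted p = 0.763).

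Abca3, the transporter that loads phospholipid into lamellar bodies, and Lpcat1, the enzyme that remakes saturated phosphatidylcholine, did not pass either. Abca3 lay between 11.06 and 11.55 over the 25 arrays and its lowest array was of Il10-/- mice at 72 hr, where the change was -0.11 (interval -0.29 to 0.07). Lpcat1 lay between 12.10 and 12.56 with changes of -0.08 and 0.07 over the O3 times in Il10+/+ and Il10-/- mice, with arrays that overlapped air at each time.

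Napsa, the aspartic protease that trims the SP-B precursor, lay between 11.84 and 12.30. Its Il10+/+ air values were 11.93, 12.14, 11.90 and 11.84, and its 9 O3 values lay between 12.03 and 12.26, all above 3 of the 4 air arrays. The change over the O3 times was 0.15 (interval 0.01 to 0.30, unadjusted p = 0.0419 by limma's fit of all 25 arrays), which did not pass adjustment, and in Il10-/- mice it was 0.08 (interval -0.07 to 0.23).

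Slc34a2, the phosphate transporter of the type 2 cell's apical membrane, lay between 12.77 and 13.15, with changes of 0.08 and 0.06 over the O3 times. All 6 of its estimates by time were above 0, from 0.02 to 0.11, and none of their intervals left 0 out. Etv5, a transcription factor that keeps type 2 cells in their state, had the widest spread, from 8.02 to 9.12. Its 4 Il10+/+ air values were 8.80, 9.02, 8.02 and 9.08, and its changes ran from -0.24 to 0.04 with intervals from -0.67 to 0.47.

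Probe sets of 1 gene did not contradict each other past the threshold. Beside Sftpa1, extra probe sets were present for Sftpc, Abca3, Lpcat1 and Etv5, and none of these was called over the O3 times in either genotype. The extra Sftpc probe set lay between 3.87 and 4.79.

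**Figure D4:**
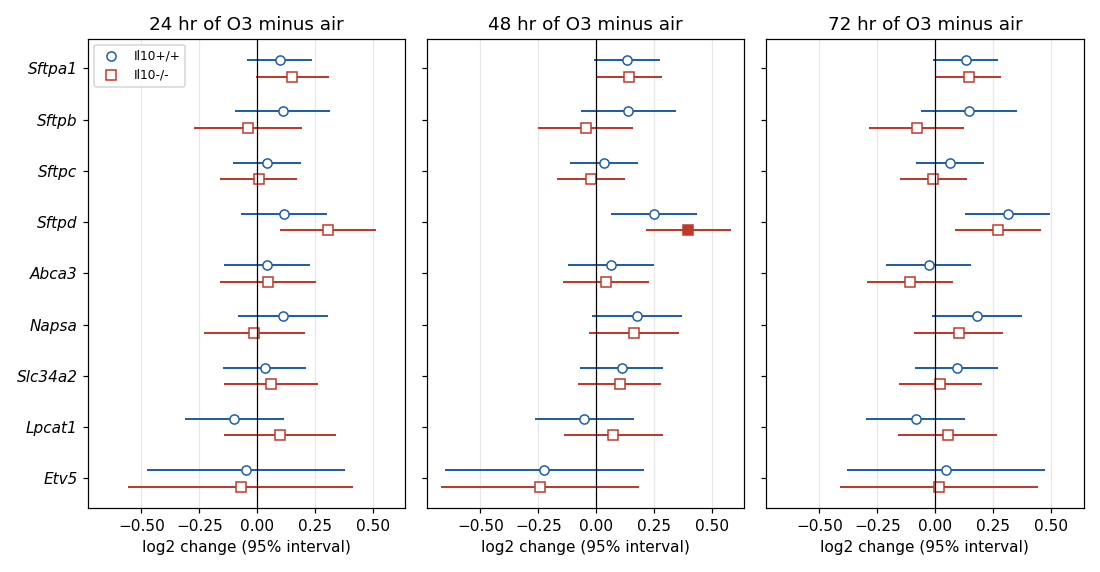
Log2 change from air (horizontal axes) of the 9 genes after 24, 48 and 72 hr of O3, in Il10+/+ (blue circles) and Il10-/- mice (red squares), with 95% intervals as lines and filled symbols for an adjusted p under 0.05. The filled symbol is Sftpd at 48 hr in Il10-/- mice, at 0.40, and the intervals of Sftpc stay within -0.17 and 0.21.

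The changes of the 9 genes as a set were small. Their median change over the O3 times was 0.08 in Il10+/+ mice and 0.06 in Il10-/- mice, beside -0.01 over all genes in both.

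Some other genes used as markers of the type 2 cell changed in these whole lungs, where the cell behind a change was not tested. Of 15 such genes, 3 rose and 1 fell over the O3 times in Il10+/+ mice, and 4 rose and 1 fell in Il10-/- mice, with medians of 0.11 and 0.06, where 3.66% and 7.55% of all genes were called. Ctsh, a lysosomal protease that processes SP-B, rose by 0.44 (adjusted p = 0.00128) and 0.50 (adjusted p = 0.000258). Bex2 fell by 0.83 (adjusted p = 0.000137) and 0.63 (adjusted p = 0.00149).

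Chil1, a chitinase-like protein, rose by 1.22 in Il10-/- mice (adjusted p = 0.0274), and its change in Il10+/+ mice was 0.38 (adjusted p = 0.629). The other calls were Muc1, a mucin of the apical membrane, with 0.48 and 0.39, and Npc2, a lysosomal cholesterol carrier, with 0.33 in both genotypes. Without the library labelled as Il10-/- air 48 hr replicate 1 the Il10-/- change of Chil1 was 1.88 (adjusted p = 3.67e-07) and Muc1 no longer passed (0.41, adjusted p = 0.0699), whereas the other 3 Il10-/- calls were kept. Muc1 and Npc2 fell outside the rule for named genes and are named because so few genes passed. Lyz1, Lyz2 and Cxcl15, abundant type 2 products, had changes between -0.03 and 0.11 and did not pass.

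**Figure D5:**
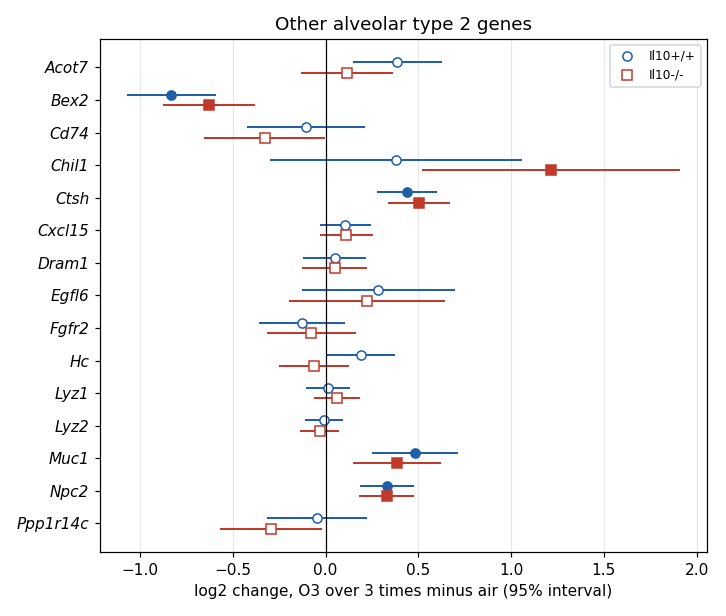
Log2 change over the 3 O3 times from air (horizontal axis) of 15 other alveolar type 2 genes (vertical axis) in Il10+/+ (blue circles) and Il10-/- mice (red squares), with 95% intervals as lines and filled symbols for an adjusted p under 0.05. Ctsh, Muc1 and Npc2 lie above 0 and Bex2 below 0 in both genotypes, and Chil1 is filled at 1.22 in Il10-/- mice.

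Of 21 genes of lipid supply for surfactant, 1 rose over the O3 times in Il10+/+ mice and 2 rose in Il10-/- mice, shares near the 3.66% and 7.55% of all genes called in the same comparisons. Me1, malic enzyme, which supplies NADPH for fatty acid synthesis, rose by 0.36 (adjusted p = 0.0289) and 0.31 (adjusted p = 0.0470). Acsl4, an acyl-CoA synthetase that prefers arachidonic acid, rose by 0.41 in Il10-/- mice (adjusted p = 0.0383), and its change in Il10+/+ mice was 0.40 (adjusted p = 0.0613). Neither Il10-/- call was kept without the air library that has the low Il10 value (adjusted p = 0.0706 for Me1 and 0.0987 for Acsl4), where 4.04% of all genes were called.

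Of 18 transcription factors of lung epithelium, among them Nkx2-1, Cebpa and Foxa2, 1 passed in each genotype over the O3 times, which is again near the share of all genes. It was Elf3, which rose by 0.52 and 0.50 (adjusted p = 0.0146 for each). Of 14 genes of surfactant uptake and breakdown, Csf2rb, the shared receptor chain for GM-CSF, rose in both genotypes, by 0.75 with an adjusted p of 0.0322 and by 0.69 with one of 0.0370. The scavenger receptors Marco and Msr1 rose in Il10-/- mice, by 0.96 (adjusted p = 0.0464) and 0.43 (adjusted p = 0.0485). None of the Il10-/- calls of Elf3, Csf2rb, Marco and Msr1 was kept without that air library, where the adjusted p was 0.0543, 0.0605, 0.198 and 0.101 at changes of 0.48, 0.76, 0.76 and 0.45.

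Genes used as markers of other epithelial states moved beside Sftpd in these whole lungs, where the cell behind a change was not tested. Of 14 genes of the stressed or transitional alveolar epithelium, 8 rose over the O3 times in Il10+/+ mice and 11 in Il10-/- mice. Their medians were 0.66 and 0.67, and 3.66% and 7.55% of all genes were called in the same comparisons. Of the 11, 8 were kept without the air library of low Il10 value, the 3 lost being Krt7, Cldn4 and Hbegf. Sprr1a, a cornified envelope protein, rose by 3.00 and 2.99, Lcn2, an iron-binding defence protein, by 1.05 and 1.78, and Sfn, a 14-3-3 protein, by 1.09 and 0.96. The mean level of these 14 genes was 9.30 to 9.35 on Il10+/+ air arrays and 9.22 to 9.46 on Il10-/- air arrays. At 48 hr of O3 it was 10.15 to 10.24 on the Il10+/+ arrays and 10.03 to 10.43 on the Il10-/- arrays. The 13 genes of dividing cells, led by Birc5, Cdk1 and Rrm2, rose at 48 and 72 hr and not at 24 hr. None of 13 was called at 24 hr in either genotype (medians 0.04 and 0.15), and all 13 were called at 48 hr (medians 1.65 and 2.14) and at 72 hr (medians 2.25 and 1.86) in both.

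Markers of alveolar type 1 cells, which type 2 cells replace, did not pass in Il10+/+ mice, and 3 of 10 fell in Il10-/- mice, Igfbp2 by 0.90, Sema3e by 0.54 and Cav1 by 0.29. Over the O3 times 3.66% of all genes were called in Il10+/+ mice and 7.55% in Il10-/- mice. The genotype difference in the O3 response was called for no gene at any time. Among 8 genes of club cells, airway secretory cells that also make SP-A and SP-D, Cckar alone passed over the O3 times, with 0.29 in Il10-/- mice, and it did not pass without the air library of low Il10 value (adjusted p = 0.0751). The mean level of the 8 club genes was 12.33 to 12.53 on Il10-/- air arrays and 12.06 to 12.51 on the Il10-/- arrays of 48 hr, and these ranges overlapped. Of 5 ciliated cell genes, Tppp3 fell in both genotypes, by 0.54 and 0.72, and Tekt2 fell by 0.49 in Il10-/- mice, a call that was also lost without that library (adjusted p = 0.113). The 3 calls of type 1 genes and that of Tppp3 were kept.

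Outside the epithelium, 3 of 12 endothelial genes fell in Il10-/- mice, Tie1 by 0.60, Pecam1 by 0.41 and Cldn5 by 0.24, where 7.55% of all genes were called, and Tie1 did not pass without the air library of low Il10 value (adjusted p = 0.0824). None of the 12 passed in Il10+/+ mice, where 3.66% of all genes did, and none of the 12 was called for the genotype difference in the O3 response at any time. Of 9 alveolar macrophage genes Ctsk rose in both genotypes, by 0.99 and 0.97, and Marco in Il10-/- mice with that library included. Of 10 neutrophil genes, Mmp8 and Il1r2 rose in Il10-/- mice, by 1.13 and 0.89, and the median of the 10 was 0.52. In Il10+/+ mice none of the 10 passed and their median was -0.46. Mmp8 and Il1r2 were higher in Il10-/- than in Il10+/+ mice at 24 hr of O3, by 1.51 (adjusted p = 0.0482) and 1.39 (adjusted p = 0.00150), whereas the genotype difference in the O3 response was called for none of the 10 at any time. Over the O3 times none of 10 B cell, 11 T cell and 4 red blood cell genes passed. The part of these other cells in the change of Sftpd was not tested.

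Among all other genes, those whose levels over the 25 arrays followed Sftpd most closely were Gclc (r = 0.863), Fst (0.85), Plpp2 (0.849), Krt18 (0.837) and Plp2 (0.818). Gclc encodes the catalytic subunit of the enzyme that starts glutathione synthesis, Fst encodes follistatin, and Krt18 is a keratin of simple epithelium. All 5 rose over the O3 times in both genotypes, where 3.66% and 7.55% of all genes were called in Il10+/+ and Il10-/- mice. Krt18 rose by 0.77 (adjusted p = 0.000544) and 0.91 (adjusted p = 7.47e-05), and Gclc by 0.57 (adjusted p = 0.0377) and 0.69 (adjusted p = 0.00741). The 5 were picked on these same arrays for following Sftpd, most of whose O3 values lay above air. Their rise thus follows largely from the choice and is not separate evidence. In Il10-/- mice Gclc and Plpp2 did not pass without the air library of low Il10 value (adjusted p = 0.0554 and 0.108).

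Sftpc was followed most closely by Eef1a1 (r = 0.826), a translation factor, Scgb1a1 (0.799), the main secretory protein of club cells, Fam120b (0.787), Arpc1a (0.782) and Paf1 (0.779), none of which passed over the O3 times. Etv5 was followed by Axl (0.81), Psmf1 (0.727), Trim35 (0.714), Rac2 (0.708) and Unc119 (0.705), none of which passed. These are correlations over 25 arrays that share groups and normalization, picked as the highest among all genes. Whether such genes passed is likewise tied to the gene they were picked by.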

How the data were processed

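Left-lung RNA was hybridised to 26 Affymetrix mouse arrays. The deposited log2 values are the authors' summaries of the intensity files by Robust Multichip Average (RMAExpress, version not given in the sources used here), with background correction, quantile normalization and median polish. They were not transformed further. Precision is set by the few arrays per group, and background per probe set was not measured.

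Of 22690 probe sets, 20393 had 1 gene symbol in the platform annotation of 2016, 691 had several and 1606 had none. The 12394 genes were each taken by the probe set with the highest mean. The members and the marker lists were chosen with earlier results of these data known. Named genes were all members, the 3 largest changes past the threshold in each list, and the 5 genes most correlated with Sftpc, Sftpd and Etv5.

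Limma 3.58.1 (R 4.3.3) fitted the 8 group means together over 25 arrays, with empirical Bayes moderation. P-values were adjusted by Benjamini-Hochberg over all genes, with a threshold of 0.05. A p-value measures the spread between these arrays only. Steps were tested on simulated data. The alternatives were all 26 arrays, air of the same time, only the arrays compared, array weights, the genes of lowest mean left out, median centring, the mean of probe sets, the letter c as a covariate, a replicate block, each array left out in turn and the methods' two-way analysis of variance. Leaving out the Il10-/- O3 24 hr group, or the lettered arrays, was added after seeing the data. Promoter windows came from RefSeq (GRCm38.p6). Plots used matplotlib 3.10.9 (Python 3.11.15).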

Additional observations from a re-analysis of the deposited data

Results flagged for a closer look

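The O3 response of Sftpb at 48 hr differed between the genotypes by -0.184 on the log2 scale (Il10-/- minus Il10+/+), with every Il10+/+ O3 array above its own air mean and every Il10-/- O3 array below its own. Limma's test of this difference did not pass (adjusted p = 0.999994, interval -0.47 to 0.10).

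The O3 response of Lpcat1 at 72 hr differed by 0.138 in the same sense, with every Il10-/- O3 array above its air mean and every Il10+/+ O3 array below its own. The test of the difference did not pass here either (adjusted p = 0.999962, interval -0.16 to 0.43). The extra probe sets of Lpcat1 had smaller differences at 72 hr, of 0.048 and 0.008. No array of any air group was an outlier for any of the 9 genes.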

How the results depend on the processing

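The calls of Sftpd in Il10-/- mice were kept in 32 of 36 alternatives each. Most alternatives left out 1 array, often an array outside the comparison, so this count says little of how firm the calls are. The 4 losses of each call all fell among the other settings. At 48 hr the adjusted p was 0.971 with all 26 arrays, 0.0772 with only the arrays compared, 0.1005 with the letter c as a covariate and 0.287 without the lettered arrays, at changes of 0.40, 0.40, 0.26 and 0.21. Without the lettered arrays the Il10-/- air group and the Il10-/- O3 24 hr group are 1 array each, assumed to vary like the other groups. Over the O3 times the change was -0.63 with all 26 arrays (adjusted p = 0.782), since the added array lies at 4.85, and 0.32, 0.22 and 0.18 in the other 3 settings (adjusted p = 0.0696, 0.0718 and 0.381). In these 4 settings the number of members called in Il10-/- mice was 0 by time and 0 over the O3 times, against 1 and 1.

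More members passed under other settings, nearly all of them Sftpd at a further time. In Il10+/+ mice the number called by time, 0 of 27, was 2 with array weights (48 hr, adjusted p = 0.0417, and 72 hr, adjusted p = 0.00365) and 1 with the mean of probe sets, with the letter c as a covariate and without the Il10-/- O3 24 hr group, and it ranged from 0 to 1 when single arrays were left out. Over the O3 times it was 1 of 9 with array weights, with only the arrays compared, with the letter c, with no Il10-/- O3 24 hr group and no lettered arrays, and 0 to 1 with single arrays left out. In Il10-/- mice the number by time was 2 with array weights and 2 without the O3 24 hr group, and 1 to 3 with single arrays left out. There, leaving out air 24 hr replicate 2 or O3 24 hr replicate 1 gave 3, the latter with Sftpd at 24 hr 0.45 (adjusted p = 0.0264), and O3 24 hr replicate 3 gave 2. Over the O3 times it was 1 to 2, the 2 without O3 24 hr replicate 1, where Sftpa1 passed (0.17, adjusted p = 0.0483). The cause was not tested.

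No member was called between genotypes or in the genotype difference of the response under any alternative. Limma's F test of exposure, over each time in each genotype, called 1 member. The methods' analysis of variance, which takes exposure over both genotypes, passed 2, at their threshold and after adjustment. The replicate block changed no call: 0 and 1 members by time and 0 and 1 over the O3 times in Il10+/+ and Il10-/- mice, with Sftpd at 48 hr 0.38 (adjusted p = 0.00891) and over the O3 times 0.31 (adjusted p = 0.0110) in Il10-/- mice. Same-numbered arrays correlated above 0.1 in 29 of 45, 15 of 36 and 6 of 15 pairs, with median r of 0.16, 0.08 and 0.09. Arrays of unlike number were not set beside them, so this check cannot decide whether the numbers pair the arrays. Of the values of members that were not called, 4467 kept their direction and side of the threshold, 242 changed sign without passing and 25 passed. Signal over background could not be weighed from these values.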
